A study of Mus musculus with 12 samples.

Results

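The genes described here are 10 genes of carotene and retinoid metabolism, taken from a list of gene names chosen with earlier results of these data known. All 10 were found among the 35791 genes of the count files. They are Bcmo1 (the current RefSeq symbol is Bco1), Isx and Scarb1, which act in the uptake and cleavage of carotenes, Rbp2 and Lrat, which bind and store retinol, Adh1, Adh4 and Rdh7, which oxidise retinol, Aldh1a1, which makes retinoic acid, and Cyp26b1, which clears it. All 10 passed the filter on low counts and were tested. The enterocyte takes up beta-carotene from food and cleaves it to retinal, or takes up preformed retinol, and esterifies most of it for export in chylomicrons. A smaller part is oxidised to retinoic acid, the ligand of the nuclear retinoic acid receptors. In the intestine retinoic acid is known to induce Isx, a homeobox repressor that lowers transcription of Bcmo1 and Scarb1, a feedback that limits vitamin A formation.

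RNA from small bowel of male C57BL/6 mice, 8 to 10 weeks old, was sequenced in 12 libraries, 3 in each of 4 groups. Pre control and Pre 2'-FL are labelled as before ileocecal resection (removal of the terminal ileum and cecum), Post control and Post 2'-FL as after it. 2'-FL (2'-fucosyllactose) is a human milk oligosaccharide, supplied at 2.5 g/L to the supplemented arm, and the control arm had none. All 4 groups share strain, sex, the liquid diet and the chow named in the labels. The labels date the start of the supplement to the day of resection and all bowel collection to 8 weeks after it, so how a library came to be labelled Pre, and what a Pre 2'-FL mouse had received, cannot be told from them. They also do not give the bowel segment, the hour of collection, or whether replicates or libraries with the same number came from separate mice, so p-values measure the spread between libraries.

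Library totals ran from 5663275 to 9385266 estimated counts. Libraries differed in how their counts leaned with transcript length. Spearman's rho across 12654 genes between length and a gene's deviation from its mean was 0.26 to 0.50 in the 6 Pre libraries, -0.21 to 0.36 for Post control and -0.60 to -0.44 for Post 2'-FL (genes are not independent replicates). Values with each library's length and GC trend removed are therefore given beside those as tested wherever they change a call of a member. For other genes and markers they are given where stated. They are named corrected values. The deposited bowel carried enterocyte markers in every library, while markers of the distal small bowel differed. In CPM, which are counts scaled to a common library total, their summed level was 479 to 1117 for Pre control, 511 to 603 for Pre 2'-FL, 372 to 412 for Post control and 76.1 to 229 for Post 2'-FL, and Fgf15, an ileal hormone, had no count in any Post library. Not all distal markers fell in the control arm. Ceacam20 had 209 to 231 CPM for Post control against 106 to 200 for Pre control, and the control groups overlapped for Slc10a2. In such whole-tissue RNA, fewer cells of a type and less RNA per cell cannot be told apart.

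Levels spanned a wide range. In CPM per kilobase of transcript, averaged over the 12 libraries, Rbp2 stood highest at 2942, followed by Adh1 at 143, Aldh1a1 at 111, Rdh7 at 84.9 and Isx at 68.1. The other members were far lower: Adh4 reached 6.05, Lrat 5.03, Scarb1 3.37, Bcmo1 1.51 and Cyp26b1 1.12 CPM per kilobase. Rbp2 was the highest member in every group, and the order of Adh1, Aldh1a1 and Rdh7 rests on means whose libraries overlap. The place of Isx changed between groups. In Pre 2'-FL it stood at 66.0, above Rdh7 (55.3) and Aldh1a1 (49.8), and in Pre control at 53.0 against 52.0 for Rdh7. The order of the 5 lowest changed between groups. Adh4 was the lowest member in Pre control, at 1.23 CPM per kilobase against 1.68 for Cyp26b1 and 3.23 for Bcmo1, and reached 15.9 in Post 2'-FL.

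**Figure D1:**
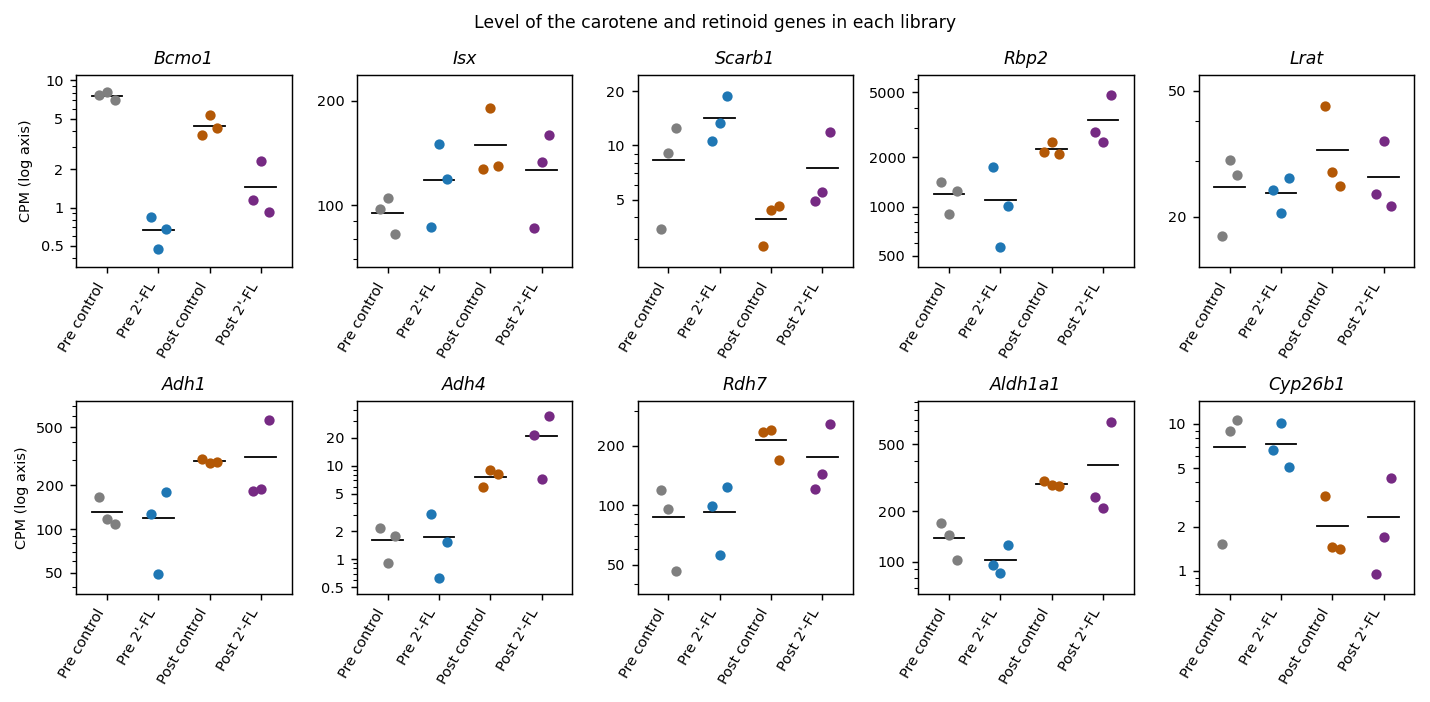
Level of each of the 10 genes in CPM (log axis, with its own range in each panel) in the 12 libraries, by group; points are libraries and black lines are means of 3. Bcmo1 is low in all 3 Pre 2'-FL libraries (0.469 to 0.846 CPM) against 7.01 to 8.03 CPM for Pre control, and Adh4 is higher in every Post library than in any Pre library.

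Between the arms, Bcmo1 was the member that differed in both states. Over both arms, the retinol- and retinal-oxidising genes Adh1, Adh4, Rdh7 and Aldh1a1 rose after resection together with Rbp2, and Scarb1 and Cyp26b1 fell. A gene was called where the edgeR adjusted p was under 0.05. With the correction the changes of Rbp2 and Cyp26b1 over both arms were not called. In the control arm only Adh4 and Rdh7 were called, and only Adh4 with the correction. Comparing Post with Pre in the control arm, 2 of 10 members were called, both higher, against 10.8% of all 13154 genes tested (4.42% called higher, 6.33% called lower). Within the 2'-FL arm 7 of 10 were called, 6 higher and 1 lower, against a background of 55.3% (25.3% higher, 30.0% lower). Over both arms 7 of 10 were called, 5 higher and 2 lower, against 56.4% (25.3% higher, 31.1% lower). The shares in the last 2 comparisons lie near those of all genes when direction is ignored. The median log2 change of the members was 0.78, 1.02 and 0.74 in these 3 comparisons, against -0.05, -0.13 and -0.10 over all genes tested. With the correction the medians were 0.72, 0.48 and 0.59, against 0.05, 0.02 and 0.03. As the members were chosen with earlier results known, these shares and medians describe the list and do not test it.

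With the correction the calls among members were 1 in the control arm (12.6% of all genes called), 2 in the 2'-FL arm (35.9%) and 6 over both arms (43.4%). Groups did not overlap for 7 of 10 members in the control arm, against 34.9% of all genes, and for 6 of 10 in the 2'-FL arm, against 61.6%. For 2'-FL against control, 2 of 10 members were called in Post, against 38.1% of all genes, and 1 with the correction, against 21.7%. Groups did not overlap for 2 members there, against 50.7% of all genes. In Pre, 1 member was called, against 0.0152% of all genes (2 genes of 13154), and the same with the correction, also 0.0152%. Groups did not overlap for that 1 member, against 9.22%. The change after resection differed between the arms (interaction) for 1 member, against 15.5% of all genes. With the correction no member was called (0.0% of all genes by edgeR, although 2636 genes had an unadjusted p under 0.05). Without the correction DESeq2 also called 1 member, against 2587 of 35791 genes.

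Bcmo1, on chromosome 8 from 117095851 to 117133720 (mm10, plus strand), encodes the enzyme that splits beta-carotene into retinal. It had 60, 79 and 59 counts in the 3 Pre control libraries and 7, 3 and 4 for Pre 2'-FL, then 24, 29 and 42 for Post control and 6, 15 and 5 for Post 2'-FL. In CPM these were 7.63, 8.03 and 7.01 for Pre control, 0.846, 0.469 and 0.678 for Pre 2'-FL, 3.70, 5.30 and 4.21 for Post control, and 1.14, 2.31 and 0.930 for Post 2'-FL. Every library of the 2'-FL arm lay below every library of the control arm, and the 4 groups did not overlap one another.

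Its level in Pre was 7.56 ± 0.51 CPM (SD, n = 3) in control and 0.664 ± 0.189 in 2'-FL, 10.9-fold lower (log2 -3.45 ± 0.38 SE, edgeR adjusted p = 0.00331). This was the smallest p of all genes tested in that comparison. Without Pre 2'-FL replicate 2, the library with the lowest value, the difference was -3.27 and missed the threshold (edgeR adjusted p = 0.052). In Post the levels were 4.40 ± 0.819 and 1.46 ± 0.744 CPM, 2.92-fold lower in 2'-FL (log2 -1.54 ± 0.36, edgeR adjusted p = 0.0047), and the corrected value was -1.67. That call was made in all 12 fits that left out a library. Without Post 2'-FL replicate 2 the difference was larger, at -2.07.

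The change of Bcmo1 after resection had opposite signs in the arms. In the control arm the log2 change was -0.78 ± 0.31 and was not called (edgeR adjusted p = 0.107). In the 2'-FL arm it rose by 1.12 ± 0.45 (edgeR adjusted p = 0.0451), a call that was lost with the correction (1.04, edgeR adjusted p = 0.0808), with upper quartile scaling (1.06), with DESeq2 (1.21) and with no filter on low counts (1.12). It was also lost without Pre control replicate 3 (1.12), Pre 2'-FL replicates 2 (1.02) or 3 (1.13), or Post 2'-FL replicate 2 (0.60). The difference between the arms was 1.91 ± 0.54 (edgeR adjusted p = 0.0319). This call held in 5 of the 12 fits that left out a library, in which the difference ran from 1.39 to 2.20. It was lost without Pre control replicates 2 or 3, Pre 2'-FL replicates 2 or 3, Post control replicates 1 or 3, or Post 2'-FL replicate 2, and was not made with the correction (1.81, edgeR adjusted p = 0.0931).

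The other gene called between the Pre arms, named here after its values were seen, was Per2, a core gene of the circadian clock. Its level was 38.6 ± 14.9 CPM for Pre control, 9.88 ± 0.249 for Pre 2'-FL, 10.5 ± 2.47 for Post control and 2.68 ± 0.226 for Post 2'-FL. Per2, like Bcmo1, was thus lower in 2'-FL in both states. The hour of collection is not labelled, and its part in either difference was not tested.

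The sequence upstream of Bcmo1 is shown because this was the member called between the arms in both states. It spans chr8:117095615-117095850 (RefSeq, GRCm38.p6, the assembly of mm10), plus strand, 5′ to 3′, and ends at the base before the gene. The capitals mark 2 copies of AGGTCA spaced by 1 base, read on the minus strand, 42 to 30 bases before the gene's start. A direct repeat of this kind is a known type of element for RXR heterodimers and HNF4 factors.
Bcmo1: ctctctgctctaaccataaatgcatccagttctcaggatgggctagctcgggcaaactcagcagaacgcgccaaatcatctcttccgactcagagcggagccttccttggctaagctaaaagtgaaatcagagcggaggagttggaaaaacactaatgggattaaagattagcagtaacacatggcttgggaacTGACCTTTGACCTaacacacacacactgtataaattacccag

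Both strands of the 250 bases before the start were searched in 32851 RefSeq promoters, which hold 11 promoters of 9 members. Scarb1 is not in the table. The repeat of AGGTCA spaced by 1 was found in 11 promoters (0.0335%), and Bcmo1 was the only member among them. AGGTCA repeated with a spacing of 5, the classical arrangement for retinoic acid receptors, was found in 3 promoters (0.00913%) and AGTTCA repeated with that spacing in 7 (0.0213%), with no member in either. The core GGTCA, which lies within AGGTCA, was present in 35.2% of promoters and in those of 6 members (Lrat, Adh4, Bcmo1, Rbp2, Rdh7 and Aldh1a1). The homeobox core TAATTA was present in 4.84% of promoters and in no member, and TAATTG in 7.17% and in Adh4. Of the letters bound by caudal-type factors, TTTATG was present in 10.8% and in Bcmo1 and Rdh7, and TTTACG in 2.61% and in Adh1. These are matches of letters and not measured binding.

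Isx (chromosome 8, 74873174 to 74893506), the repressor in the feedback, had 97.5, 105 and 82.8 CPM for Pre control and 86.7, 150 and 119 for Pre 2'-FL, then 127, 190 and 130 for Post control and 85.8, 133 and 159 for Post 2'-FL. The 3 Post control libraries lay above the 3 Pre control libraries, and all other pairs of groups that differ in 1 factor overlapped. No comparison of Isx was called. Its log2 difference between the Pre arms, in which Bcmo1 differed most, was 0.31 ± 0.26 (edgeR adjusted p = 1.0), and between the Post arms -0.24 ± 0.26 (edgeR adjusted p = 0.483). After resection it changed by 0.64 ± 0.26 in the control arm (edgeR adjusted p = 0.112) and 0.09 ± 0.26 in the 2'-FL arm. Over both arms the log2 change was 0.37 ± 0.18 (edgeR adjusted p = 0.0951), and it was called without Pre 2'-FL replicate 2 (0.52) or without Post 2'-FL replicate 1 (0.48).

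Scarb1 (chromosome 5, 125277087 to 125341094) encodes the scavenger receptor that takes carotenoids and other lipids into the enterocyte. Its values were 3.43, 9.14 and 12.5 CPM for Pre control, 10.6, 13.4 and 18.8 for Pre 2'-FL, 2.77, 4.39 and 4.61 for Post control, and 4.92, 5.54 and 11.9 for Post 2'-FL. Every Post control library was below every Post 2'-FL library, and Pre control replicate 1 lay within the Post control range. Over both arms Scarb1 fell after resection by 1.01 ± 0.31 on the log2 scale (edgeR adjusted p = 0.0127), and the corrected change was -0.77 (edgeR adjusted p = 0.0414). The changes within the arms were -1.08 ± 0.45 in control and -0.94 ± 0.43 in 2'-FL, neither of them called (edgeR adjusted p = 0.123 and 0.0767). The change in the control arm was called without Pre control replicate 1 (-1.42), and that in the 2'-FL arm without Pre control replicate 1 (-0.86) or Post 2'-FL replicate 3 (-1.44).

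Scarb1 and Bcmo1, the genes that Isx is known to repress, had estimates of opposite sign between the arms, and only those of Bcmo1 were called. Scarb1 was 0.76 ± 0.41 higher on the log2 scale in Pre 2'-FL and 0.91 ± 0.46 higher in Post 2'-FL than in the matching control, without being called (edgeR adjusted p = 1.0 and 0.13). The Pre groups overlapped for Scarb1. Bcmo1 was lower in 2'-FL in both states. The part of Isx in these differences was not tested. Across the 12 libraries Pearson's r of log2 CPM was -0.53 between Bcmo1 and Scarb1, -0.13 between Bcmo1 and Isx, and -0.09 between Isx and Scarb1, as a description over libraries that share groups and length trends.

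**Figure D2:**
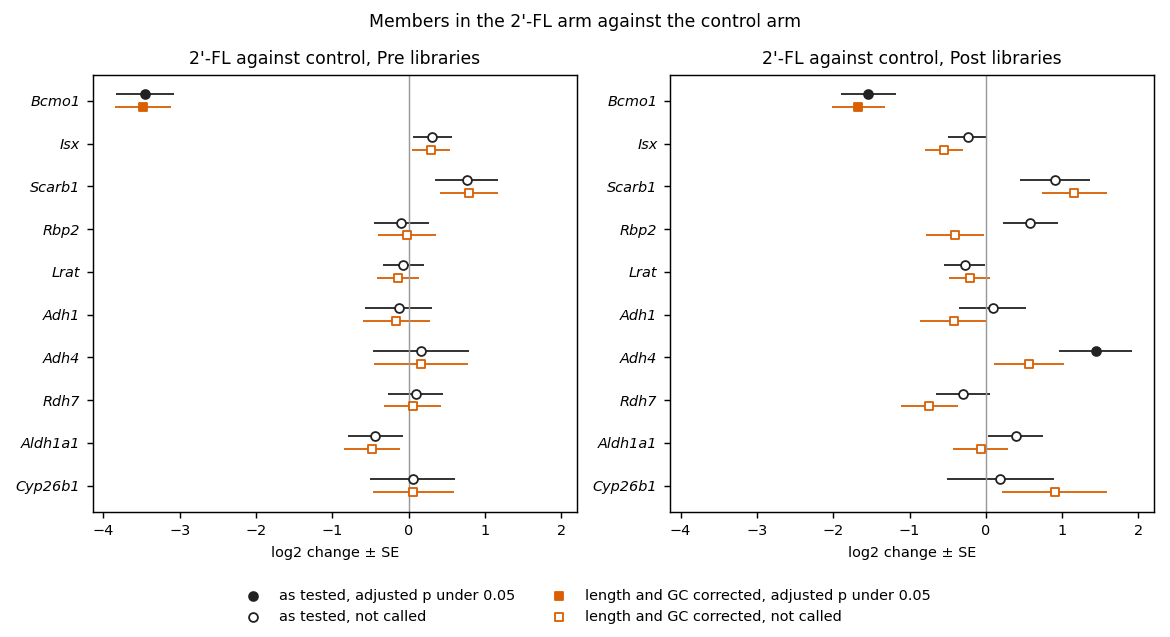
Log2 difference of 2'-FL against control ± SE for each of the 10 genes in the Pre libraries (left) and the Post libraries (right); circles are values as tested, squares are corrected for transcript length and GC, and filled symbols have an adjusted p under 0.05. Bcmo1 is lower in 2'-FL on both sides (-3.45 in Pre and -1.54 in Post), and Adh4 is called in Post only as tested (1.44, corrected 0.57).

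Rbp2 (chromosome 9, 98490537 to 98509771) encodes cellular retinol-binding protein II, the abundant carrier of retinol and retinal in the enterocyte. It had 1408, 905 and 1244 CPM for Pre control, 1738, 568 and 1008 for Pre 2'-FL, 2157, 2485 and 2108 for Post control, and 2838, 2474 and 4795 for Post 2'-FL. Each of the 6 Post libraries was above each of the 6 Pre libraries. Over both arms Rbp2 rose 2.41-fold (log2 1.27 ± 0.26, edgeR adjusted p = 0.00105). The rise in the 2'-FL arm was 3.05-fold (1.61 ± 0.37, edgeR adjusted p = 0.00232), and the change in the control arm was 1.90-fold (0.92 ± 0.36, edgeR adjusted p = 0.11), called there by DESeq2 (0.95) and by edgeR fitted to the 6 control libraries (0.94).

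At 672 bases the Rbp2 transcript is the shortest of the members, and its calls were lost with the correction. The corrected log2 changes were 0.87 in the control arm, 0.49 in the 2'-FL arm (edgeR adjusted p = 0.328) and 0.68 over both arms (edgeR adjusted p = 0.0539), none of them called. Between the Post arms the sign turned, from 0.58 ± 0.36 as tested to -0.40 ± 0.38 corrected, and neither was called.

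Lrat (chromosome 3, 82892582 to 82903974) encodes the acyltransferase that esterifies retinol bound to the Rbp2 product. Its values were 17.4, 30.3 and 27.0 CPM for Pre control, 24.3, 20.6 and 26.4 for Pre 2'-FL, 44.7, 27.6 and 25.0 for Post control, and 23.5, 34.8 and 21.6 for Post 2'-FL. The groups overlapped in every comparison. Over both arms the log2 change was 0.27 ± 0.19 (edgeR adjusted p = 0.235), while the corrected value, 0.50 ± 0.19, was called (edgeR adjusted p = 0.0486). At 5351 bases it is the longest transcript of the members.

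Adh4 showed the largest change of the members after resection. It lies on chromosome 3 from 138415456 to 138432683 and encodes an alcohol dehydrogenase with high activity towards retinol. It had 2.16, 0.914 and 1.78 CPM for Pre control, 3.02, 0.625 and 1.52 for Pre 2'-FL, 5.86, 8.96 and 8.12 for Post control, and 21.4, 7.24 and 33.9 for Post 2'-FL. All Post libraries lay above all Pre libraries, from 38 counts upwards against at most 25. Over both arms it rose 7.39-fold (log2 2.89 ± 0.39, edgeR adjusted p = 7.11e-05), and the corrected rise was 2.27 ± 0.38 (edgeR adjusted p = 0.000487).

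Adh4 rose 4.75-fold in the control arm (2.25 ± 0.56, edgeR adjusted p = 0.0234). That call held with the correction (2.06) and was lost without Pre control replicates 2 (1.97) or 3 (2.34) or Post control replicates 1 (2.42) or 2 (2.15). Its rise in the 2'-FL arm was 11.5-fold (3.52 ± 0.56, edgeR adjusted p = 0.00018), corrected 5.55-fold. The rise in the 2'-FL arm was called in all 12 fits that left out a library, with log2 values from 2.99 to 4.34, the highest without Pre 2'-FL replicate 1. The change did not pass the test of a difference between the arms (1.28 ± 0.80, edgeR adjusted p = 0.282). In Post it was 2.71-fold higher in 2'-FL than in control (1.44 ± 0.48, edgeR adjusted p = 0.0297), although Post 2'-FL replicate 2 lay inside the control range. That call was not made with the correction (0.57, edgeR adjusted p = 0.391), nor without Post control replicates 1 (1.35) or 3 (1.55) or Post 2'-FL replicates 1 (1.42) or 3 (0.89).

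The upstream sequence of Adh4 is shown as that of the member with the largest change. It spans chr3:138415247-138415455 (RefSeq, GRCm38.p6), plus strand, 5′ to 3′, up to the base before the gene. The capitals mark TAATTG read on the minus strand, which occurs at 2 places.
Adh4: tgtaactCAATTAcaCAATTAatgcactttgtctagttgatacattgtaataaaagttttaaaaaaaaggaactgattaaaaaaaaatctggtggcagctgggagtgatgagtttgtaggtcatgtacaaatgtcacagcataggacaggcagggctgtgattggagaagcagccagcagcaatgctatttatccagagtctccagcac

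Adh1 (chromosome 3, 138277585 to 138290698) encodes the class I alcohol dehydrogenase, which oxidises ethanol and also retinol. Its values were 166, 118 and 108 CPM for Pre control, 128, 48.8 and 181 for Pre 2'-FL, 302, 286 and 291 for Post control, and 183, 188 and 562 for Post 2'-FL. All Post libraries were above all Pre libraries, narrowly so in the 2'-FL arm, where the highest Pre library had 181 and the lowest Post library 183. Over both arms Adh1 rose 2.42-fold (log2 1.27 ± 0.32, edgeR adjusted p = 0.00365), corrected 0.90 (edgeR adjusted p = 0.0304). In the 2'-FL arm it rose by 1.38 ± 0.45 (edgeR adjusted p = 0.0174), which fell to 0.64 and missed the threshold without Post 2'-FL replicate 3, and was 0.77 with the correction (edgeR adjusted p = 0.183). The control arm's change of 1.16 ± 0.44 was not called by edgeR over 4 groups (adjusted p = 0.101), but was by DESeq2 (1.19) and by edgeR fitted to the 6 control libraries (1.18).

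Rdh7 (chromosome 10, 127884027 to 127889247) encodes a microsomal retinol dehydrogenase. It had 119, 95.9 and 46.5 CPM for Pre control, 98.9, 55.8 and 124 for Pre 2'-FL, 234, 241 and 170 for Post control, and 121, 144 and 259 for Post 2'-FL. The control groups did not overlap, and in the 2'-FL arm the highest Pre library exceeded the lowest Post library. Rdh7 rose 2.15-fold over both arms (log2 1.11 ± 0.26, edgeR adjusted p = 0.00252), corrected 0.77 (edgeR adjusted p = 0.0284). In the control arm it rose by 1.30 ± 0.37 (edgeR adjusted p = 0.0376), a call lost with the correction (1.16) and without Pre control replicates 2 (1.39) or 3 (1.00) or Post control replicates 1 (1.25) or 2 (1.23). Within the 2'-FL arm Rdh7 rose by 0.91 ± 0.36 (edgeR adjusted p = 0.0456), lost with the correction (0.37), with upper quartile scaling (0.83), and without Pre 2'-FL replicates 1 (1.03) or 2 (0.74) or Post 2'-FL replicate 3 (0.52). Rdh7 counts were fractional in 12 of 12 libraries, as were those of its close relatives Rdh9 and Rdh16, so some reads may be divided between these genes.

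Aldh1a1 (chromosome 19, 20492583 to 20643463), the retinal dehydrogenase that forms retinoic acid, had 169, 144 and 102 CPM for Pre control and 95.5, 85.9 and 126 for Pre 2'-FL. After resection it had 301, 286 and 281 CPM for Post control and 243, 209 and 683 for Post 2'-FL. Every Post library was above every Pre library. The rise was 2.78-fold over both arms (log2 1.48 ± 0.26, edgeR adjusted p = 0.00034), and 1.15 ± 0.26 with the correction (edgeR adjusted p = 0.00341). Aldh1a1 rose in the 2'-FL arm by 1.89 ± 0.37 (edgeR adjusted p = 0.000755), corrected 1.36 (edgeR adjusted p = 0.0122), and this was called in all 12 fits that left out a library. Without Post 2'-FL replicate 3, which had the highest value, the rise was 1.15. In the control arm the change was 1.06 ± 0.36 and not called (edgeR adjusted p = 0.0691), although it was called without Post 2'-FL replicates 2 (1.07) or 3 (1.07). It was also called there by DESeq2 (1.09) and in the fit to the 6 control libraries (1.08).

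Post 2'-FL replicate 3 had the highest value of all 12 libraries for Rbp2, Adh1, Adh4, Rdh7 and Aldh1a1. It also had the highest level of Fabp1, a fatty acid binding protein of the proximal small bowel, at 8902 CPM against 313 to 5374 CPM in the other 11, and the strongest negative length trend (rho -0.60). The Fabp1 transcript is short, at 553 bases. Other proximal markers did not all follow it. In that library Lct (436 CPM), Gata4 (55.4) and Cybrd1 (1.86) lay below every Pre library. Onecut2 (13.2) lay above every Pre library, and Slc40a1 (10.8) within their range. The part of these in the members' values was not tested.

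Cyp26b1 (chromosome 6, 84571414 to 84593908) encodes a hydroxylase that inactivates retinoic acid. It had 1.53, 8.94 and 10.6 CPM for Pre control, 6.65, 10.2 and 5.08 for Pre 2'-FL, 3.24, 1.46 and 1.40 for Post control, and 0.947, 1.69 and 4.28 for Post 2'-FL. The groups did not overlap in the 2'-FL arm, and in the control arm Pre control replicate 1 lay within the Post range. Over both arms Cyp26b1 fell by 1.73 ± 0.45 on the log2 scale (3.33-fold lower, edgeR adjusted p = 0.00456), and the corrected change was -1.03 (edgeR adjusted p = 0.0675). Within the 2'-FL arm Cyp26b1 fell by 1.66 ± 0.64 (edgeR adjusted p = 0.0377). The corrected change there was -0.61 (edgeR adjusted p = 0.463), and the call held in 5 of the 12 fits that left out a library, with values from -2.42 to -1.27. It was lost without Pre control replicate 2, Pre 2'-FL replicates 1 or 2, Post control replicates 2 or 3, or Post 2'-FL replicates 1 or 2. In the control arm the change was -1.80 ± 0.62 (edgeR adjusted p = 0.0743), called without Pre control replicate 1 (-2.25) and by DESeq2 (-1.75).

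Endothelial markers fell after resection, as Cyp26b1 and Scarb1 did, and the summed immune markers were lower in every Post library than in any Pre library. Some fibroblast and smooth muscle markers were higher in Post 2'-FL than in Post control. The counts that follow are over both arms unless said otherwise, where 31.1% of all genes were called lower and 25.3% higher. Of 6 endothelial markers, 6 were called lower. In the control arm alone 1 was called lower, where 6.33% of all genes were, and none with the correction. In the 2'-FL arm 6 were called lower, where 30.0% of all genes were, and 4 with the correction. Their summed level was 21.2 to 107 CPM for Pre control, 60.9 to 133 for Pre 2'-FL, 20.7 to 33.9 for Post control and 14.0 to 21.6 for Post 2'-FL, with none at 0. Pre control replicate 1, low in Cyp26b1 and Scarb1, was also the lowest Pre library in the endothelial sum (21.2 CPM). The same library was the lowest of all in the fibroblast sum (110 CPM), so this was not particular to endothelium. Of 7 immune markers 3 were called lower, near the share of all genes, with sums of 97.4 to 145, 116 to 160, 37.1 to 89.8 and 31.4 to 80.9 CPM in the same order of groups and none at 0. Of 6 fibroblast markers 3 were lower and none higher, with sums of 110 to 542, 270 to 478, 116 to 210 and 295 to 497 CPM. With the correction 2 of them were lower and none higher, where 3276 of 13154 genes were higher and 2438 lower. Between the Post arms 3 fibroblast markers were called higher in 2'-FL, also with the correction. As tested, 2471 of 13154 genes were called higher there. Within the 2'-FL arm 1 fibroblast marker rose and 2 fell, and with the correction 1 rose and none fell. Of 6 smooth muscle markers 1 rose and 1 fell, with sums of 858 to 1139, 715 to 1683, 503 to 780 and 1292 to 1541 CPM, and 3 were higher in Post 2'-FL than in Post control. With the correction none of them rose and 2 fell over both arms, and 3 were again higher in Post 2'-FL. None of the fibroblast or smooth muscle markers was at 0 in all libraries. The part of these cells in the results was not tested.

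Segment markers differed between the states as well. Of 6 distal markers in the files 4 fell over both arms and none rose. Of 7 proximal markers 6 were tested, and 2 rose and 3 fell (2 and 2 with the correction). Their summed levels were 1752 to 2742 CPM for Pre control, 1156 to 3038 for Pre 2'-FL, 2527 to 3121 for Post control and 2563 to 9419 for Post 2'-FL. Of these sums Fabp1 made up 313 to 1254 CPM in the Pre libraries and 1295 to 8902 CPM in the Post libraries. Pdx1, a defining duodenal gene, was at 0 in 9 libraries and at most 0.379 CPM. Of 10 villus enterocyte markers 3 rose and 3 fell, near the shares of all genes, with summed levels of 33051 to 51364, 23301 to 44864, 51674 to 65924 and 62882 to 66468 CPM. With the correction 3 villus markers rose and 1 fell. The segment of each library is not labelled, and its part in the changes of the members was not tested.

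**Figure D3:**
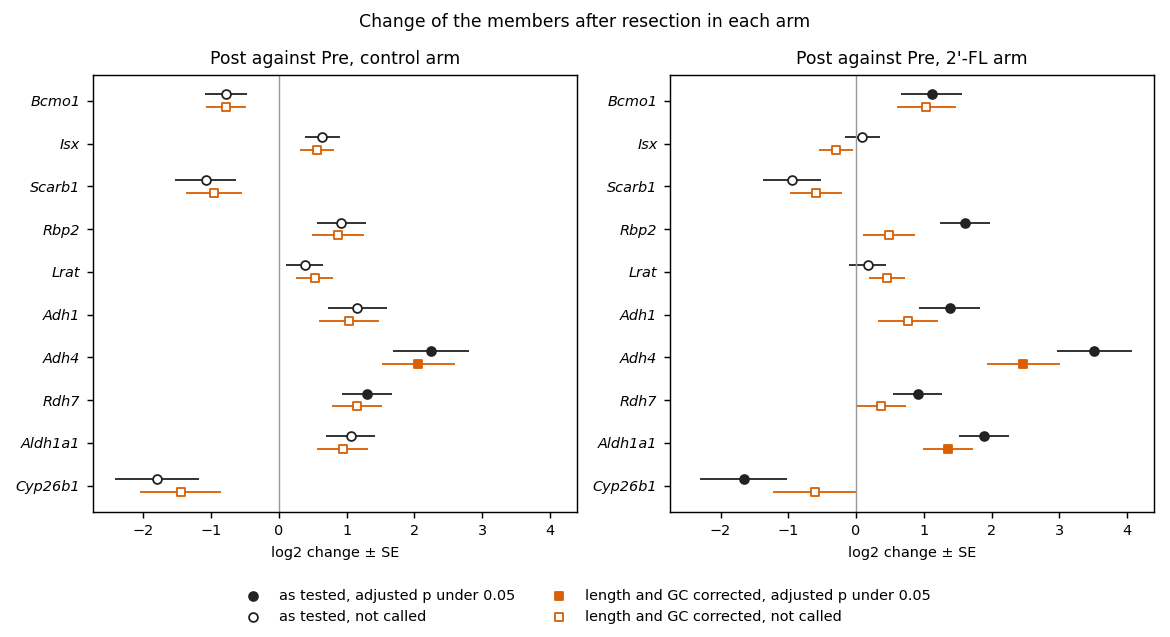
Log2 change after resection ± SE for each of the 10 genes in the control arm (left) and the 2'-FL arm (right); circles are values as tested, squares are corrected for transcript length and GC, and filled symbols have an adjusted p under 0.05. Adh4 is called in both arms with and without the correction, Rbp2 moves from 1.61 to 0.49 in the 2'-FL arm, and Bcmo1 lies on opposite sides of 0 in the arms.

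A wider list of 53 retinoid genes holds the 10 members and 43 others, of which 33 were tested. Over both arms 11 of these 33 were called higher and 8 lower after resection, and the 19 calls lie near the share of all genes (56.4%). Their median log2 change was 0.23 against -0.10 over all genes. With the correction 13 were higher and 5 lower (43.4% of all genes called), with a median of 0.09 against 0.03. The control arm had 4 called higher and 1 lower, with 10.8% of all genes called, and the supplemented arm 9 and 8, with 55.3%. Between the Post arms 4 were higher and 4 lower in 2'-FL, with 38.1% of all genes called, and between the Pre arms none was called by edgeR, with 3 at an unadjusted p under 0.05.

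The part of the list that oxidises or reduces retinol and retinal moved mostly upwards. Of its 17 tested genes, members included, 11 rose and 1 fell over both arms, where 25.3% of all genes rose and 31.1% fell. With the correction 12 rose and 1 fell. This list too was chosen with earlier results known, so its counts are a description. Rdh16, a retinol dehydrogenase related to Rdh7, rose by 1.64 ± 0.15 on the log2 scale (edgeR adjusted p = 1.55e-05), from 8.30 ± 0.89 CPM for Pre control, and was called in both arms in all 12 fits that left out a library. Rdh9, another relative, rose by 1.15 ± 0.18 (edgeR adjusted p = 0.000175). Rdh14 rose by 0.74 ± 0.12 (corrected 0.32) and Dhrs4, a retinal reductase, by 0.82 ± 0.15 (corrected 0.49). Rdh10 (0.30 ± 0.13), Dhrs3 (0.07 ± 0.18) and Retsat, a retinol saturase (0.23 ± 0.31), were not called. Rdh10, the dehydrogenase that dominates retinal formation in the embryo, was called with the correction (0.52, edgeR adjusted p = 0.00384).

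The Aldh1a genes split. Aldh1a7, a close relative of Aldh1a1, rose by 1.51 ± 0.23 (edgeR adjusted p = 0.00013). Aldh1a3 fell by 1.70 ± 0.29 (edgeR adjusted p = 0.000334, corrected -1.37), and Aldh1a2, the form of stromal and dendritic cells, changed by -0.76 ± 0.31 without a call (edgeR adjusted p = 0.0515). Aldh1a3 had 19.5, 46.4 and 64.9 CPM for Pre control, 18.9, 47.5 and 52.2 for Pre 2'-FL, 14.6, 10.1 and 14.0 for Post control, and 9.47, 12.6 and 15.6 for Post 2'-FL. All its Post libraries were below all its Pre libraries, the reverse of Aldh1a1. Aldh1a1 and Aldh1a7 counts were each fractional in 6 of 12 libraries.

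Among the carriers, Rbp7, a retinol carrier of capillary endothelium and fat, rose by 1.47 ± 0.20 over both arms (edgeR adjusted p = 6.19e-05) and by 0.79 with the correction (edgeR adjusted p = 0.00233). Bco2, which cleaves carotenoids at another bond than Bcmo1, changed by 0.07 ± 0.20 over both arms, -0.13 ± 0.28 between the Pre arms and -0.02 ± 0.28 between the Post arms, none called. At 35.5 CPM per kilobase over the 12 libraries its level was above the 1.51 of Bcmo1. Of the genes that make and split retinyl or other acyl esters, Dgat1 rose by 0.51 ± 0.17 (edgeR adjusted p = 0.0177), and Lpl and Lipe fell by 1.73 ± 0.49 and 0.92 ± 0.26 (Lipe was not called with the correction, at -0.35). Lpl reached 97.7 CPM in Pre 2'-FL replicate 1, in which the summed adipose markers stood at 464 CPM against 88.4 to 148 CPM in the other 11 libraries.

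No receptor rose as tested. Rara, Rxra and Rarg fell over both arms by 0.83 ± 0.20, 0.70 ± 0.18 and 1.21 ± 0.33 on the log2 scale, and with the correction the values were -0.24, 0.09 and -0.75, none called. Rxrb, at 0.26 ± 0.13 as tested, was called higher with the correction (0.73, edgeR adjusted p = 0.00165). Rarb, a receptor that retinoic acid is known to induce, changed by -0.74 ± 0.35 (edgeR adjusted p = 0.0868). Of 7 tested genes known to respond to retinoic acid, a set that includes Isx, Lrat and Cyp26b1, none rose and 2 fell (Cyp26b1 and Tgm2) over both arms, near the 31.1% of all genes that fell. With the correction 1 rose (Lrat) and none fell. Tgm2 fell by 0.86 ± 0.18 (edgeR adjusted p = 0.00127), with a corrected value of -0.28 that was not called. Cyp26a1, the clearance enzyme most sensitive to retinoic acid in many cells, was not tested, with at most 0.203 CPM in any library.

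**Figure D4:**
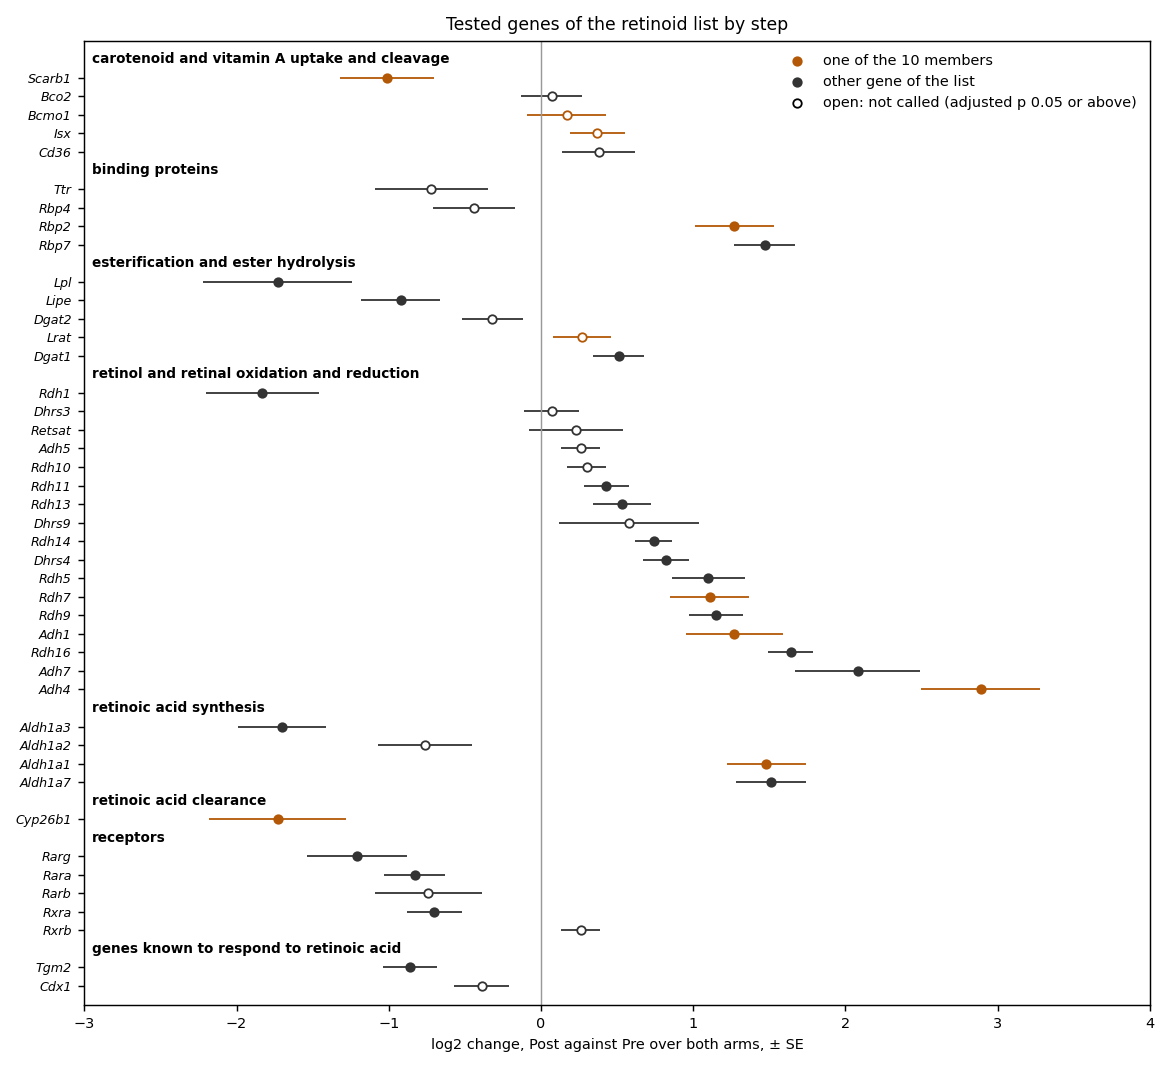
Log2 change after resection over both arms ± SE, as tested, for the tested genes of the wider retinoid list, grouped by step (a gene in more than 1 step is drawn once); orange marks the 10 members, and filled points have an adjusted p under 0.05. In the oxidation step 11 genes are called higher and Rdh1 lower, while Aldh1a1 and Aldh1a7 lie opposite to Aldh1a3.

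The genes whose levels were most like that of Bcmo1 over the 12 libraries, by Pearson's r of log2 CPM, were Hist1h1e (0.88), Pmp22 (0.85), Galnt11 (0.83), Prmt2 (0.82) and Hsd3b2 (0.80). For Isx they were Fam207a (0.91), Rab22a (0.89), Xbp1 (0.88), Lman2 (0.88) and Creld2 (0.86). These are the 5 highest of all genes tested for each member, over libraries that share group, depth and length trend.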

How the data were processed

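RNA from small bowel was sequenced in 12 libraries of 4 groups (n = 3), per the labels. The authors deposited an estimated count per gene, unnormalised, made from reads of Illumina libraries per the labels' protocols. The submitters' processing notes name mm10 and DESeq. The aligner, counter, annotation and strand are not given in the sources used here. Between 15.2% and 20.5% of entries per library are fractional, so reads can be divided between related genes. Entries were summed per gene and rounded, giving 35791 genes and 5663275 to 9385266 counts per library.

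Tests used edgeR 4.0.16 in R 4.3.3: filterByExpr by group (13154 genes), TMM, and 1 quasi-likelihood model over the 12 libraries (8 residual degrees of freedom, biological coefficient of variation 0.238), two-sided, with Benjamini-Hochberg adjustment over all 13154 genes and calls at 0.05. The SE was derived from the log2 change and its F statistic. CPM use TMM-scaled totals. The corrected fit adds offsets from natural splines (4 degrees of freedom each) of transcript length and GC, known for 12654 of the tested genes. Gene positions are from RefSeq. The code was tested on simulated counts.

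Named genes are all 10 members, at most 4 others per part of the wider list by smallest p in the comparison described, 9 that share a step with a member, and the 5 genes most like Bcmo1 and Isx. Members and lists were chosen with earlier results of these data known. Alternatives were RLE and upper quartile scaling, DESeq2 1.42.0, no filter, a stricter filter (1 CPM in 6 libraries), fits to the compared groups, the replicate number as a block, each library left out, a threshold of 0.01, and the largest entry per gene. A gene of the wider list is not reported here.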

Additional observations from a re-analysis of the deposited data

Results flagged for a closer look

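The change after resection differed between the arms, by the interaction term of the edgeR model, for 3 of 43 tested genes of the wider retinoid list. Of all 13154 genes 15.5% were called there, a larger share than in the list. Bcmo1 differed by 1.91 (log2, 2'-FL arm minus control arm), with -0.78 in the control arm and 1.12 in the 2'-FL arm. Rbp7 differed by 1.54 (edgeR adjusted p = 0.022), from 0.70 to 2.24, and was not called without Pre control replicate 3 (1.21) or Post control replicate 3 (1.47). Rdh1 differed by -2.54 (edgeR adjusted p = 0.0381), from -0.56 to -3.10, at 0.308 to 0.379 CPM in Post 2'-FL, and was called in 2 of the 12 fits. With the length and GC correction none of the 3 was called: Bcmo1 had 1.81, Rbp7 0.24 and Rdh1 -2.27. Transcripts are 2338 bases for Bcmo1, 619 for Rbp7 and 3930 for Rdh1.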

How the results depend on the processing

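The number of members called within an arm moved more with the processing than the number called over both arms. With the length and GC correction the members called were 1 in the control arm, 2 in the 2'-FL arm and 6 over both arms. Between the Post arms 1 was called, and 0 for the interaction. Over both arms the correction lost the calls of Rbp2 and Cyp26b1 and gained that of Lrat. In the control arm DESeq2 called 6 members, against 1853 of 35791 genes. The fit to the compared groups called 5 there, against 1478 of 12737 genes. At a threshold of 0.01 the counts were 0 in the control arm, 3 in the 2'-FL arm, 1 in Post and 0 for the interaction. The share of all genes at 0.01 is not given here. Leaving out 1 library gave 0 to 4 in the control arm, 4 to 8 in the 2'-FL arm, 7 to 8 over both arms, 1 to 2 in Post, 0 to 1 in Pre and 0 to 1 for the interaction. Those fits tested 13278 to 13431 genes. Of all genes they called 265 to 1843 in the control arm and 6215 to 7375 in the 2'-FL arm. Over both arms they called 6653 to 7478, in Post 3279 to 5384, in Pre 0 to 17 and for the interaction 424 to 3024. The cause of these changes was not tested.

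The sign turned, among values that were not called, for Isx in the 2'-FL arm (-0.29 corrected). Between the Post arms it turned for Rbp2 (-0.40), Adh1 (-0.42) and Aldh1a1 (-0.07), and for the interaction of Rbp2 (-0.38) and Adh1 (-0.27), all corrected. Ranges over the left-out libraries that crossed 0 were, in the 2'-FL arm, Lrat -0.07 to 0.30 and Isx -0.11 to 0.38, and over both arms Bcmo1 -0.09 to 0.33. In Post they were Lrat -0.52 to 0.09, Isx -0.44 to 0.03, Adh1 -0.66 to 0.36, Aldh1a1 -0.36 to 0.68 and Cyp26b1 -0.58 to 0.74. In Pre they were Rbp2 -0.58 to 0.20, Lrat -0.27 to 0.10, Adh1 -0.57 to 0.23, Adh4 -0.57 to 0.53, Rdh7 -0.22 to 0.38 and Cyp26b1 -0.42 to 0.45. For the interaction they were Lrat -0.45 to 0.16, Scarb1 -0.36 to 0.57, Adh1 -0.53 to 0.65 and Cyp26b1 -0.62 to 0.69.

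Same-numbered libraries did not deviate together in most pairs: r of their deviations ran from -0.22 to 0.42 over 18 pairs, with 4 over 0.1. The highest was between replicates 1 of Pre control and Pre 2'-FL. For differently numbered libraries of separate groups r ran from -0.36 to 0.31. The numbers were not taken as pairing. With the replicate block the members called were 2 in the control arm, 6 in the 2'-FL arm, 7 over both arms, 3 in Post, 1 in Pre and 1 for the interaction, and Adh1 in Post (-0.08) and the interaction of Cyp26b1 (-0.15) changed sign. Of all 13154 genes the block fit called 1363, 7146, 7273, 4836, 3 and 1574 in the same order. The replicate block with the correction called 1 in the control arm, 2 in the 2'-FL arm and 0 for the interaction, against 1727, 4610 and 0 of 13154 genes. Under it Isx had -0.28 in the 2'-FL arm, Rbp2 -0.41, Adh1 -0.54 and Aldh1a1 -0.18 in Post, and Rbp2 -0.32 and Adh1 -0.22 for the interaction. RLE scaling, the stricter filter and the largest entry per gene each left all 60 member values on the same side of the threshold with the same sign. Depth limits Bcmo1 in the 2'-FL arm (3 to 15 counts), Adh4 in Pre (4 to 25 counts) and Cyp26b1 in Post (5 to 23 counts).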
